A study of Mus musculus with 2 samples.

Results

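Mir103-1, Mir103-2 and Mir107 are microRNA genes that lie inside introns of pantothenate kinase (Pank) genes, and their levels were measured in the limb of the mouse embryo by small RNA sequencing. The genes were chosen by name and location, not by level, though with earlier results of these data known. They make up 3 of the 1973 microRNA genes in the count tables. The tissue was limb of the strain B6NCrl at 12.5 days of development, from embryos of both sexes, and the RNA sequenced was shorter than 30 nucleotides. Replicate 2 pooled 68 embryos and replicate 1 pooled 88 embryos. The labels place both libraries in 1 group, so no contrast between conditions exists, and the values below describe levels in whole limbs and the spread between 2 pools. In such bulk tissue, fewer cells of a type and less RNA per cell cannot be told apart.

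A microRNA is cut from a hairpin RNA and guides repressor complexes to messenger RNAs, mainly through its seed, bases 2 to 8 from the 5′ end. Pantothenate kinases catalyse the first step of coenzyme A synthesis, and microRNAs in their introns can share the primary transcript of the host. The RNA of the hosts was not measured here. In mouse liver and fat, miR-103 and miR-107 are known to lower insulin sensitivity through caveolin-1, and in human cells they are known to repress Dicer, the enzyme that cuts microRNA hairpins. Both belong to the miR-15/miR-107 group, whose members carry the core AGCAGC at the 5′ end.

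The mature sequences are shown first because the assignment of reads to the 3 genes turns on them. The 3p arms of Mir103-1 and Mir103-2 were identical, and the 3p arm of Mir107 differed from them at 1 of 23 bases, G22C (counted from 1 at the 5′ end, with the base of miR-103-3p first). Capitals mark the seed. Sequences are those of RefSeq on GRCm38.p6.
miR-107-3p (Mir107): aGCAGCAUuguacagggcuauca
miR-103-3p (Mir103-2 and Mir103-1): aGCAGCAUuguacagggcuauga

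The seed of the 3p arms was found at bases 2 to 8 of 3 entries among 1738 in the table of mature sequences, the 3 genes themselves. The 5p arms also shared 1 seed, which no other entry carried, but they differed among all 3 genes. With the base of the gene named first leading, the arm of Mir103-1 differed from that of Mir103-2 by G1A, the arm of Mir103-2 from that of Mir107 by C16U, and the arm of Mir103-1 from that of Mir107 by both.
miR-107-5p: aGCUUCUUuacaguguugccuug
miR-103-2-5p: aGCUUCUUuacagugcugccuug
miR-103-1-5p: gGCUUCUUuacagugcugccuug

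In the hairpins, shown here with both mature arms in capitals, each arm occupied the same bases in all 3 genes, 15 to 37 for the 5p arm and 52 to 74 for the 3p arm. Hairpin identity was 83.9% between Mir103-2 and Mir107, 80.5% between Mir103-1 and Mir107 and 80.2% between the miR-103 genes.
Mir107: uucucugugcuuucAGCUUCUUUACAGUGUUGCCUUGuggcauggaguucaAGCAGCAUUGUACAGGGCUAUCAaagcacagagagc
Mir103-2: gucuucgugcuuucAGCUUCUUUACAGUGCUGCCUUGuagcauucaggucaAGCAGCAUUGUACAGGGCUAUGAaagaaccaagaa
Mir103-1: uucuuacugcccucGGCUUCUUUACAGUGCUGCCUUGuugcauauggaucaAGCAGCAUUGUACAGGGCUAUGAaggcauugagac

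The 3 genes lie on different chromosomes and at the same place in their hosts. Mir107 (chr19:34820687-34820773, minus strand, GRCm38, the assembly also called mm10) lies in Pank1, Mir103-2 (chr2:131288052-131288137, plus strand) in Pank2 and Mir103-1 (chr11:35782396-35782481, plus strand) in Pank3. Each lies on the strand of its host, in intron 5 of the 6 introns of a principal transcript. Mir107 begins 326 bases after the upstream exon, Mir103-2 454 bases and Mir103-1 688 bases. The hosting introns were 7282 bases long in Pank1, 5801 bases in Pank2 and 1740 bases in Pank3. Pank4, the remaining member of the family, held 0 annotated microRNA genes.

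The stretch that a read covers determines whether it could be placed at 1 of the 3 genes. Among 2202 annotated microRNA hairpins, the first 21 bases of the 3p arm were found in all 3 genes. From 22 bases on, the stretch of Mir107 was found in Mir107 only. The stretch of the miR-103 genes was found in both of them up to 24 bases, past the end of the mature sequence, and in 1 only from 25 bases. The 5p arms were each found in 1 hairpin at every length from 16 to 26 bases when read from their first base. Windows of 20 bases that start at bases 16 to 19 of the hairpin, from the second base of the 5p arm on, were however shared by both miR-103 genes. Windows that start at bases 7 to 10, ahead of the 5p arm, were shared by Mir103-2 and Mir107 and together covered bases 7 to 29.

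**Figure D1:**
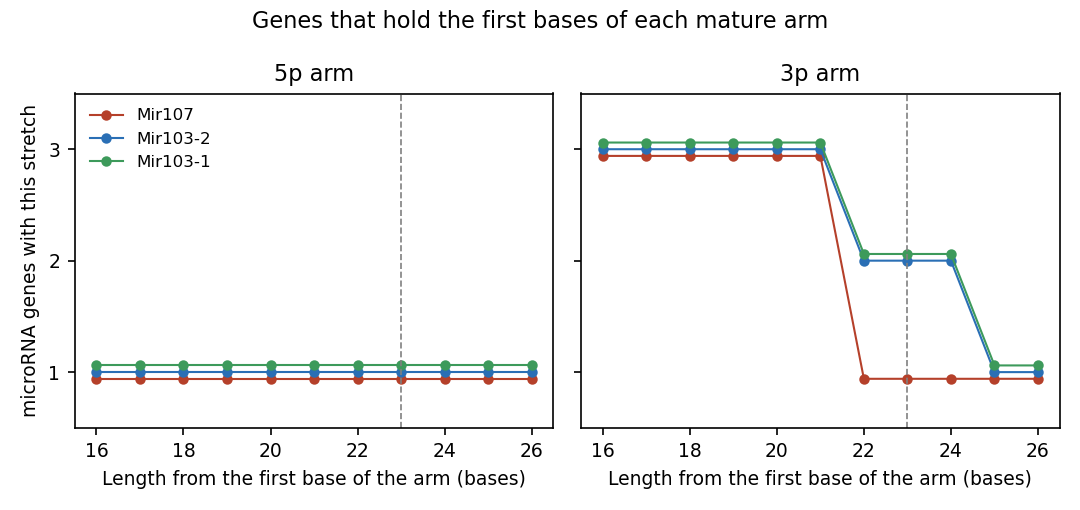
Number of annotated microRNA genes (y axis) whose hairpin holds the stretch from the first base of the 5p arm (left) or the 3p arm (right), against the length of the stretch in bases (x axis), for Mir107, Mir103-2 and Mir103-1. Lines are set slightly apart so that each can be seen, and the dashed line marks the mature length of 23 bases. On the 3p arm all 3 genes share the stretch up to 21 bases, Mir107 stands alone from 22 bases and the miR-103 genes from 25 bases.

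Such late separation was rare. Of 1675 mature entries located in a hairpin, 1538 lay in 1 hairpin at full length, and 96.4% of these did so already at 16 bases. Only 9 needed more than 16 bases and the last or next-to-last base of the mature sequence to be found in 1 hairpin. Among these, Mir107 had the highest level, and the next was Mir133b, a muscle microRNA gene, at 45.1 CPM (counts per 1000000 counts on microRNA genes).

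Of the 20-base windows in the hairpin, 9 of 68 were shared with another hairpin for Mir107, against 16 of 67 for Mir103-2 and 12 of 67 for Mir103-1. The longest run shared by the miR-103 genes was 27 bases, from base 49 to base 75, and covered the whole 3p arm. The longest run that either shared with Mir107 was 24 bases.

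**Figure D2:**
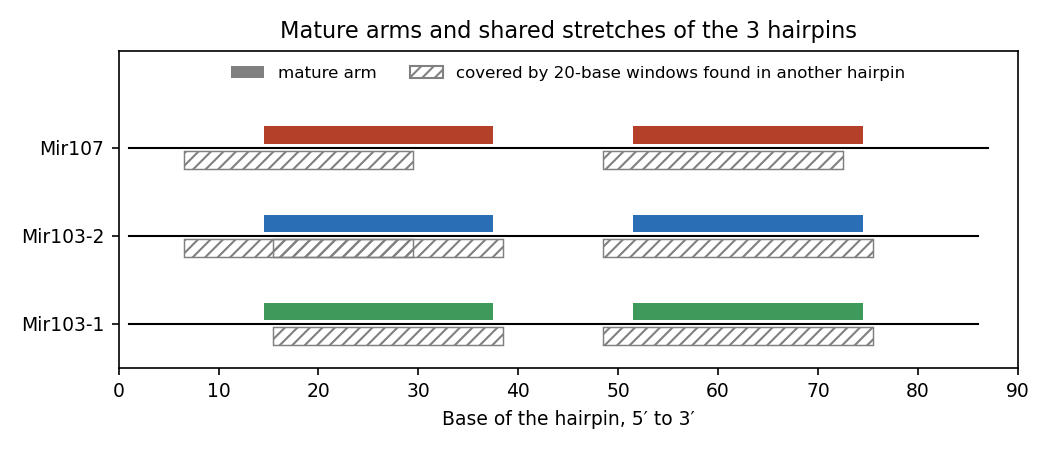
Map of the 3 hairpins by base from the 5′ end (x axis), with Mir107 at the top, then Mir103-2 and Mir103-1. Filled bars are the mature arms and hatched bars the bases covered by 20-base windows that occur in another microRNA hairpin. Over the 3p arm the hatched bars cover bases 49 to 72 in Mir107 and bases 49 to 75 in both miR-103 genes, where the filled bar of the 3p arm ends at base 74.

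The libraries held 3604284 counts on microRNA genes in replicate 2 and 4525636 in replicate 1. A single count equals 0.277 CPM in replicate 2 and 0.221 CPM in replicate 1. All 7 limb markers were detected, that is, at 10 CPM or more in both libraries, with means from 2347 CPM for Mir206 of skeletal muscle to 86831 CPM for Mir196b of the HoxA cluster. Of the markers of other tissues, Mir122 of liver stood at 15.0 CPM. The 3 neural Mir124a genes had 0 counts in both libraries, but they are copies of 1 mature microRNA whose reads can map to several places, so this 0 does not show that neural RNA was absent. Mir451a of red blood cells, Mir223 of white blood cells and Mir375 of endocrine cells reached 174, 275 and 1511 CPM, and their part in the levels below was not tested.

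Mir107 led the 3 genes in both libraries. It had 5339 counts in replicate 2 and 7490 in replicate 1, which is 1481 CPM (95% Clopper-Pearson interval 1442 to 1522) and 1655 CPM (1618 to 1693). Its mean was 1568 ± 123 CPM (SD, n = 2), rank 83 of 1973, where 93 genes reached 1000 CPM. The counts on the 3 genes were thus mostly those of Pank1's microRNA gene, with a share of 94.9% in replicate 2 and 93.9% in replicate 1.

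Mir103-2, the copy in Pank2, had 275 counts in replicate 2 and 462 in replicate 1. These equal 76.3 CPM (67.5 to 85.9) and 102 CPM (93.0 to 112). Its mean of 89.2 ± 18.2 CPM (SD, n = 2) placed it at rank 198, above the detection threshold in both libraries.

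Mir103-1, the copy in Pank3, had 9 counts in replicate 2 and 25 in replicate 1. These equal 2.50 CPM (1.14 to 4.74) and 5.52 CPM (3.57 to 8.15), with a mean of 4.01 ± 2.14 CPM (SD, n = 2) at rank 343. Both values lay under the detection threshold and above the limit of 3 counts that a count of 0 allows, 0.832 CPM in replicate 2 and 0.663 CPM in replicate 1. The order Mir107, Mir103-2, Mir103-1 held in both libraries, and no interval of 1 gene overlapped that of another. On the opposite strand all 3 genes had 0 counts in both libraries.

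**Figure D3:**
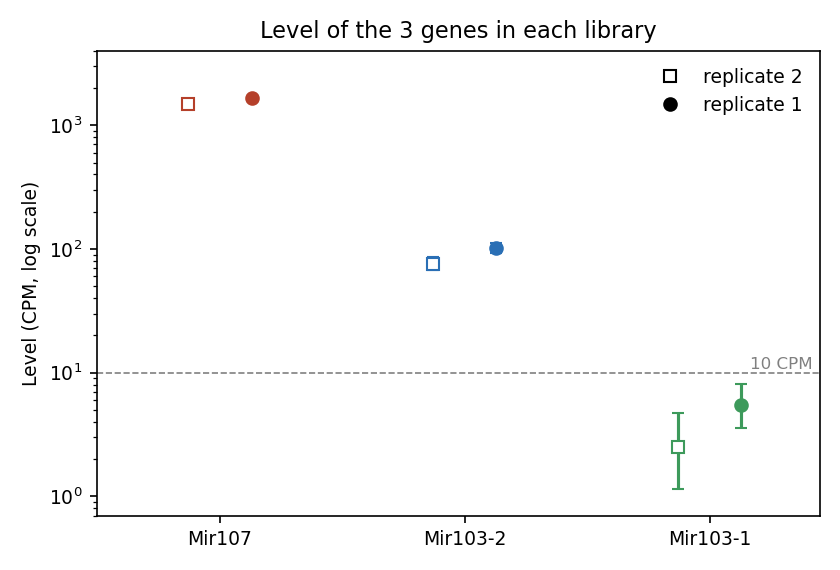
Level of Mir107, Mir103-2 and Mir103-1 in CPM (y axis, log scale) in replicate 2 (open squares) and replicate 1 (filled circles). Bars are 95% Clopper-Pearson intervals, which cover counting error only and are smaller than most symbols, and the dashed line marks 10 CPM. Mir107 lies between 1481 and 1655 CPM, Mir103-2 between 76.3 and 102 CPM and Mir103-1 between 2.50 and 5.52 CPM.

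The single-copy Mir107 exceeded both miR-103 genes together. Mir107 had 5339 counts in replicate 2 against 284 on Mir103-2 and Mir103-1 together, a ratio of 18.8 (95% Clopper-Pearson interval 16.7 to 21.3), and 7490 in replicate 1 against 487, a ratio of 15.4 (14.0 to 16.9). The mean ratio was 17.1 ± 2.4 (SD, n = 2). The hairpins are 87 and 86 bases long, so length scaling leaves this ratio at 16.9.

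These are ratios of reads that could be placed at 1 gene, not of the mature microRNAs. The tables set apart 2310423 reads of replicate 2 and 2892656 of replicate 1 that mapped to several places. That is 8135 such reads in replicate 2 and 5940 in replicate 1 for each read counted on a miR-103 gene. A whole read of miR-103-3p matches both copies, and how many of the reads set apart came from it was not tested. A read of miR-107-3p that ends at base 21 or earlier matches all 3 genes, and how many such reads there were was not tested. Because a count covers a whole hairpin, 5p and 3p reads of these genes were not separated.

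Between the identical copies, Mir103-2 exceeded Mir103-1 by 30.6 times in replicate 2 (95% interval 15.9 to 67.5) and by 18.5 times in replicate 1 (12.4 to 28.9). Since the tables keep reads that mapped to several places apart from the genes, this ratio does not give the part of each copy in miR-103-3p.

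Whether these ratios differed from library to library was asked with Fisher's exact test, two-sided, with Benjamini-Hochberg adjustment over the 3 pairs. It takes single reads as its units, so it covers counting error and not the spread between pools. Mir107 relative to Mir103-2 was 19.4 in replicate 2 and 16.2 in replicate 1, an odds ratio of 1.20 with an adjusted p of 0.0632 in the exact test. Mir107 relative to Mir103-1 had an odds ratio of 1.98 and an adjusted p of 0.123 in the exact test. Mir103-1 relative to Mir103-2 had an odds ratio of 0.605 and an adjusted p of 0.275 in the exact test. None of the 3 ratios passed the threshold of 0.05, which does not show that they were equal.

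All 3 genes had lower CPM in replicate 2 than in replicate 1. The log2 ratio of replicate 2 over replicate 1 was -0.16 for Mir107 (SE 0.026), -0.42 for Mir103-2 (SE 0.11) and -1.10 for Mir103-1 (SE 0.55), where the SE covers counting error. An exact binomial test on the counts, adjusted by Benjamini-Hochberg over 436 genes with 10 counts or more, called 41.7% of the genes tested, with 20.4% of those tested higher and 21.3% lower in replicate 2. It called Mir107 (adjusted p = 2.58e-09) and Mir103-2 (adjusted p = 0.000453), both lower in replicate 2, and did not call Mir103-1 (adjusted p = 0.0876).

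That test compares these libraries, not conditions, and knows counting error alone. The spread between pools was wider than the counting error of Mir107 (SE 0.026). The log2 ratios of the 189 genes whose mean reached 100 CPM, Mir107 among them, had an SD of 0.32. Both miR-103 genes lay under 100 CPM and are not among the 189. The exact negative binomial test of edgeR, which takes its dispersion from these very libraries, called 0 of 436 genes, with 25 at an unadjusted p under 0.05. Because the dispersion came from the same difference that was tested, few or no calls were close to built in, and the 0 says nothing about the 3 genes. Over the genes tested, 149 had a lower log2 ratio than Mir107, 70 a lower one than Mir103-2 and 11 a lower one than Mir103-1.

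In level, the genes next above Mir107 were Mir188 (1574 ± 314 CPM), Mir200c of epithelia (1585 ± 139 CPM) and Mir425 (1648 ± 225 CPM), and those next below were Mir375 (1511 ± 143 CPM), Mir22 (1357 ± 122 CPM) and Mir28a (1354 ± 318 CPM). The replicate values of Mir107 overlapped with those of each neighbour except Mir22, whose 1443 and 1271 CPM lay lower. Next to Mir103-2 stood Mir152 and Mir3074-1 above, at 89.9 and 90.4 CPM, and Mir669c and Mirlet7a-2 below, at 88.4 and 87.5 CPM. Next to Mir103-1 stood Mir3086 and Mir1947 above, at 4.04 and 4.18 CPM, and Mir1197 and Mir551b below, at 3.76 and 3.74 CPM. With 2 libraries no likeness of pattern across samples can be measured.

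Among the 661 microRNA genes that lie in introns of protein-coding genes on the host's strand, 103 were detected, or 15.6%, with a median of 266 CPM over those detected. Mir107 ranked 32nd of the 661, Mir103-2 69th and Mir103-1 129th. Over all 1973 genes 14.5% were detected.

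**Figure D4:**
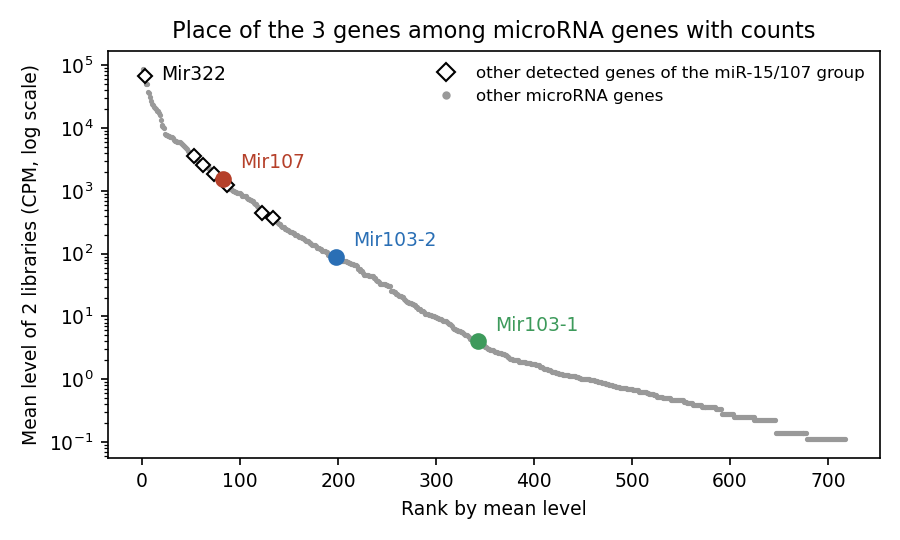
Mean level of the 2 libraries in CPM (y axis, log scale) against rank (x axis) for every microRNA gene with 1 count or more. Mir107, Mir103-2 and Mir103-1 are filled circles, and open diamonds are the 7 other detected genes of the miR-15/miR-107 group. Mir107 stands at rank 83 among the diamonds, and both miR-103 genes stand at lower levels than every diamond.

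The miR-15/miR-107 group carries the core AGCAGC, marked here in capitals. In miR-103 and miR-107 it begins at base 1, and in the other mature sequences of the group at base 2, so the seeds are shifted by 1 base.
miR-107-3p: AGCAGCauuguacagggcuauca
miR-103-3p: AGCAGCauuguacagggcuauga
miR-15a-5p: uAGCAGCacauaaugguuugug
miR-16-5p: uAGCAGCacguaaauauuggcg
miR-195a-5p: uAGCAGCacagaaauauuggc
miR-322-5p: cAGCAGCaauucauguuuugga
miR-503-5p: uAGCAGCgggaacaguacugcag

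The whole group held 79455 CPM in replicate 2 and 80835 CPM in replicate 1, of which Mir107, Mir103-2 and Mir103-1 together gave 1.96% and 2.18%. Mir322, the X-linked mouse counterpart of human miR-424, gave 85.4% in replicate 2 and 85.1% in replicate 1. Without Mir322, Mir107 held 12.8% and 13.8% of the group. Like the ratios above, these are shares of reads that could be placed at 1 gene, not of the mature microRNAs.

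By mean level Mir107 stood below Mir15a (3583 ± 288 CPM), Mir503 (2598 ± 156 CPM) and Mir16-1 (1874 ± 327 CPM), and above Mir15b (1267 ± 126 CPM), Mir195a (451 ± 15 CPM) and Mir16-2 (367 ± 89 CPM). Within each library Mir107 lay below Mir16-1, at 1481 against 1643 CPM in replicate 2 and 1655 against 2105 CPM in replicate 1, with 95% intervals that did not overlap. The 1356 CPM of Mir15b in replicate 2 lay below both values of Mir107. Mir16-1 and Mir16-2 share miR-16-5p, so their reads have the same limit as those of the miR-103 genes. Mir195b had 0 counts in both libraries. Mir497, whose mature sequence carries the core, had no row in the tables. Mir497b had been listed with the group by name, but its mature sequence does not carry the core at base 1 or 2, and its 3 counts in replicate 2 and 5 in replicate 1 add 0.969 CPM to the mean sum.

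A search of all mature entries for AGCAGC at base 1 or 2 found 15, among them 3 outside the group, Mir6342, Mir6353 and Mir6419, all with 0 counts in both libraries.

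Genes with an identical mature sequence elsewhere were common enough to place the miR-103 copies among them. Of 1058 genes in the mature table, 916 had a count row. Both miR-103 genes fell among 53 genes with 1 arm shared and the other not, of which 32 were detected (60.4%), with a median of 79.3 CPM over those detected. Mir103-2 ranked 14th of these 53 and Mir103-1 38th. Mir107 fell among 829 genes that shared no whole mature sequence, of which 225 were detected (27.1%), with a median of 380 CPM over those detected. A further 34 genes shared every mature sequence, and 6 were detected.

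The comparison took 20 pairs of genes in which a mature sequence was shared by both and 1 gene or more was detected. It does not hold every such pair. Mir92-1, Mir181b-2, Mir181a-1, Mir16-1 and Mir125b-1 were the highest genes of these pairs, at 6319, 2421, 2132, 1874 and 1858 CPM. The higher gene exceeded the lower by a median of 4.55 times in the means, and the lowest ratio was 1.41. For Mir103-2 over Mir103-1 it was 22.2 times, which 4 other pairs reached or passed. These were Mir92-1 over Mir92-2 at 25.5 times, Mir196a-2 over Mir196a-1 at 53.4 times, Mir181b-2 over Mir181b-1 at 73.2 times, and Mir194-2 over Mir194-1, where the lower gene had 1 count in each library. The pairs of Mir196a and Mir194 are named here because of their values. In 15 of the 20 pairs both genes were detected.

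**Figure D5:**
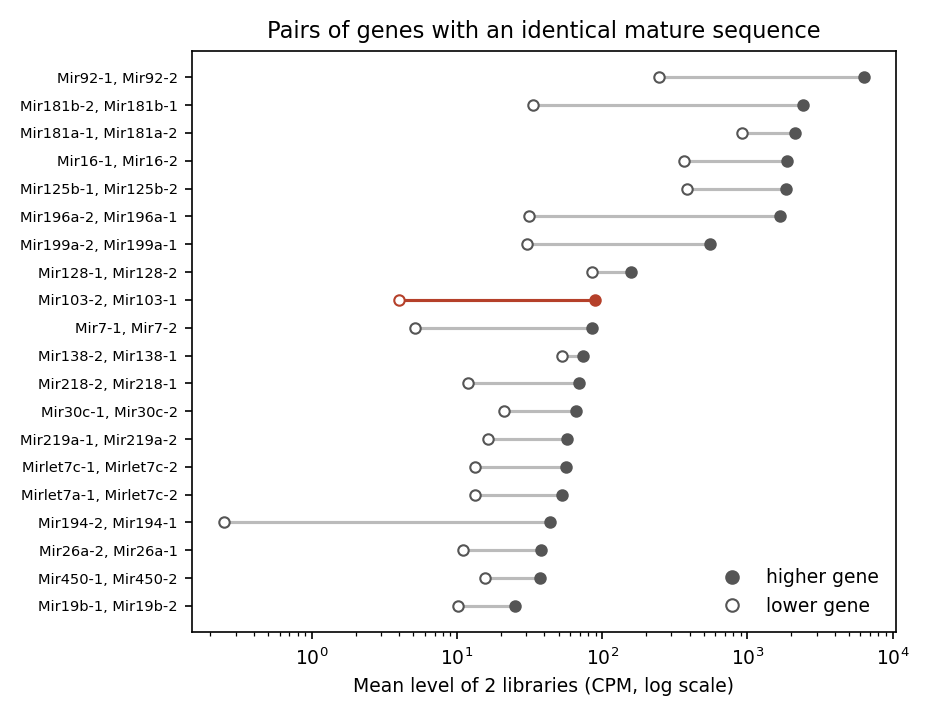
Mean level of the 2 libraries in CPM (x axis, log scale) for the 20 pairs compared of microRNA genes that share an identical mature sequence (rows), with the higher gene as a filled and the lower gene as an open circle. The miR-103 pair, in red, spans 89.2 CPM for Mir103-2 and 4.01 CPM for Mir103-1, a wider gap than the median of 4.55 times over the pairs.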

How the data were processed

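The values deposited by the authors are raw counts, whole numbers of reads for each microRNA gene. Per the deposited README, the authors placed reads on mm10 and used GENCODE M4. The aligner, counter, trimming and mismatch limit were not given in the sources used here. Of 3 count columns, the first equalled the sum of the others in all 1973 gene rows, and the second, read as the gene's own strand, was used. Rows that name no gene stayed out of the totals: unmapped, multiply mapped, outside genes and ambiguous reads were 32.6%, 23.7%, 6.70% and 0% in replicate 2 and 23.8%, 27.2%, 6.49% and 0% in replicate 1.

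Identifiers were matched to GENCODE M21 (GRCm38), where 1894 rows matched. Sequences came from RefSeq, and all 3 genes were found there. A search of the whole genome had been planned, but no genome was used here, so stretches were searched in annotated GENCODE M21 hairpins on their own strand. Hairpins were aligned globally with Biopython.

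CPM used gene counts as the total. Exact binomial and Fisher tests (scipy 1.17.1) compare libraries. Counts for the 2 libraries were also simulated with counting error alone and no spread between pools, and 434 genes were tested. The binomial test recovered in the right direction 39 of 50 genes set to 0.25 times and 35 of 50 set to 0.5 times. It recovered 35 of 50 set to 2 times and 50 of 50 set to 4 times. Changed genes under 10 simulated counts were not tested and count as not recovered. The test called 4 of 243 unchanged genes, a share that its own assumption nearly fixes. Real libraries also hold spread between pools, so these rates do not carry over to them. TMM scaling and a negative binomial test used edgeR 4.0.16, and median-of-ratios factors DESeq2 1.42.0. Log2 ratios had 0.5 counts added. Intervals were computed within each library, so they cover counting error only. They take each read as independent, which PCR copies are not, so they can be too narrow. A chi-square of 64066 over 436 genes showed that the libraries differ by more than counting error. Beside the 3 genes, the text names the miR-15/107 group, marker genes, the nearest genes in level and the highest pairs of copies. The genes and lists were chosen with earlier results of these data known.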

Additional observations from a re-analysis of the deposited data

Results flagged for a closer look

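Counts outside the own-strand measurement were found opposite to Mir497b, a gene listed with the miR-15/miR-107 group by name whose mature sequence does not carry the core AGCAGC. There lay 2326 counts in replicate 2 and 3042 in replicate 1, at 645 and 672 CPM, with a mean of 659 ± 19 CPM, against a limit of 0.832 and 0.663 CPM that a count of 0 allows. Mir497, whose hairpin overlaps Mir497b on that strand, had no row in the tables. Which gene these reads came from was not tested.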

How the results depend on the processing

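With all reads as the denominator, Mir107, Mir103-2 and Mir103-1 stood at 626, 35.8 and 1.64 counts per 1000000 reads, and without the 20 highest genes in the denominator at 4790, 273 and 12.3 CPM. With uniquely placed reads as the denominator Mir107 stood at 1345 CPM. These values follow from the size of the denominator. With all reads as the denominator, the median log2 ratio of all genes shifted to -0.21 in place of -0.01, the log2 ratio of Mir103-1 was -1.30 and passed the threshold (adjusted p = 0.0337 in the exact binomial test, range over the alternatives 0.0337 to 0.0876), and 78.9% of the calls were lower in replicate 2, in place of 51.1%. Without the 20 highest genes that share was 62.6%. The binomial test called 182 genes, and the negative binomial exact test, whose dispersion comes from the difference tested, called 0. With both strands counted, the miR-15/miR-107 group held 78784 CPM in place of 80145. The sum with the counts opposite to Mir497b, chosen after seeing the data, was 80804 CPM. Leaving out a replicate, which with 2 libraries cannot move a mean by more than 1 SD and so tests nothing, gave 1481 to 1655 CPM for Mir107, 76.3 to 102 CPM for Mir103-2 and 2.50 to 5.52 CPM for Mir103-1, and ratios of Mir107 to both miR-103 genes of 15.4 to 18.8. The value of Mir103-1 rests on 9 counts in replicate 2 and 25 in replicate 1. No paired analysis was possible because there is 1 group.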
